A study of Mus musculus with 12 samples.

Results

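The extracellular matrix genes described here are the collagens, laminins, ADAM and ADAMTS proteases, fibulins, fibrillins, latent TGF-β binding proteins, thrombospondins, collagen-modifying enzymes and 6 further matrix glycoproteins and proteoglycans. They were chosen by gene symbol among the protein-coding rows of a table of normalized counts (gene counts that the authors scaled per library and rounded to whole numbers), which gave 85 members out of 18376 genes. The table covers 12 libraries of macrophages that were differentiated in culture from bone marrow progenitors (BMDMs). The progenitors came from adult wild type C57BL6/J mice and all received 50 ng/ml M-CSF, the growth factor that drives macrophage maturation. For 6 days they were either left without further treatment (CTRL), or given activin A at 50 ng/ml (Act), FST288, a form of follistatin, at 250 ng/ml (FST), or both (Act + FST), with 3 libraries per group numbered as replicates 1, 2 and 3. The labels do not say whether replicates came from separate mice or cultures, so p-values measure the spread between these libraries, which may be technical. Total normalized counts lay between 5643708 and 5955400 per library, but the scaling hides the original depth. The 8 macrophage markers listed (among them *Adgre1*, *Csf1r* and *Cd68*) summed to 13068 to 15130 in every library. In the 4 libraries numbered 1, *Col1a1*, *Col1a2* and several other members stood higher than in the 8 others, so counts are also given without them.

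Collagens are built from 3 chains wound into a helix. The fibrillar types form the tensile fibres of connective tissue, and type IV forms the sheet of basement membranes together with laminins. Prolyl and lysyl hydroxylases (P3H and PLOD enzymes) modify collagen chains inside the cell, and lysyl oxidases (LOX family) crosslink them outside it. Many ADAMs are membrane-bound proteases that shed cell-surface proteins, and ADAMTS proteases are secreted and cut matrix proteins. Activin A belongs to the TGF-β family, a known inducer of matrix genes in fibroblasts. Macrophages are known chiefly for degrading matrix and for secreting glycoproteins such as osteopontin, thrombospondin and fibronectin.

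Osteopontin, thrombospondin 1, several ADAMs and some modifying enzymes were abundant in these cells, whereas the collagens were low. Compared per length, *Spp1* (osteopontin) had the highest mean of the 85 members, 0.587 normalized counts per exonic base, followed by *Thbs1* (thrombospondin 1) with 0.491. The highest gene of the table stood at 0.883 on this scale and the median gene at 0.0357. A level above that median was found for 20 of the 85 members. It was exceeded by 7 of the 15 ADAMs and by 5 of the 11 collagen-modifying enzymes, and the medians of these groups, 0.0299 and 0.0114, lay below it. *Adam8*, *Adam9* and *Adam10* lay at 0.330, 0.321 and 0.262. Lysyl hydroxylases *Plod1* and *Plod3* had levels of 0.212 and 0.181, and the laminin γ chain gene *Lamc1* had 0.112. All 3 collagen groups lay below the median gene, with medians per exonic base of 0.000816 (8 fibrillar collagens), 0.00201 (3 basement membrane collagens) and 0.000787 (15 other collagens). *Col20a1* was the highest collagen, at 0.0281. For *Spp1*, 18.75% of the exonic bases are shared with the annotated gene *Gm42793* on the same strand, and reads on several genes were left out of the counts. In the table, 8 members had a mean of at least 1000 normalized counts per library, 18 had 100 to 1000, 29 had 5 to 100, and 30 had less than 5.

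**Figure D1:**
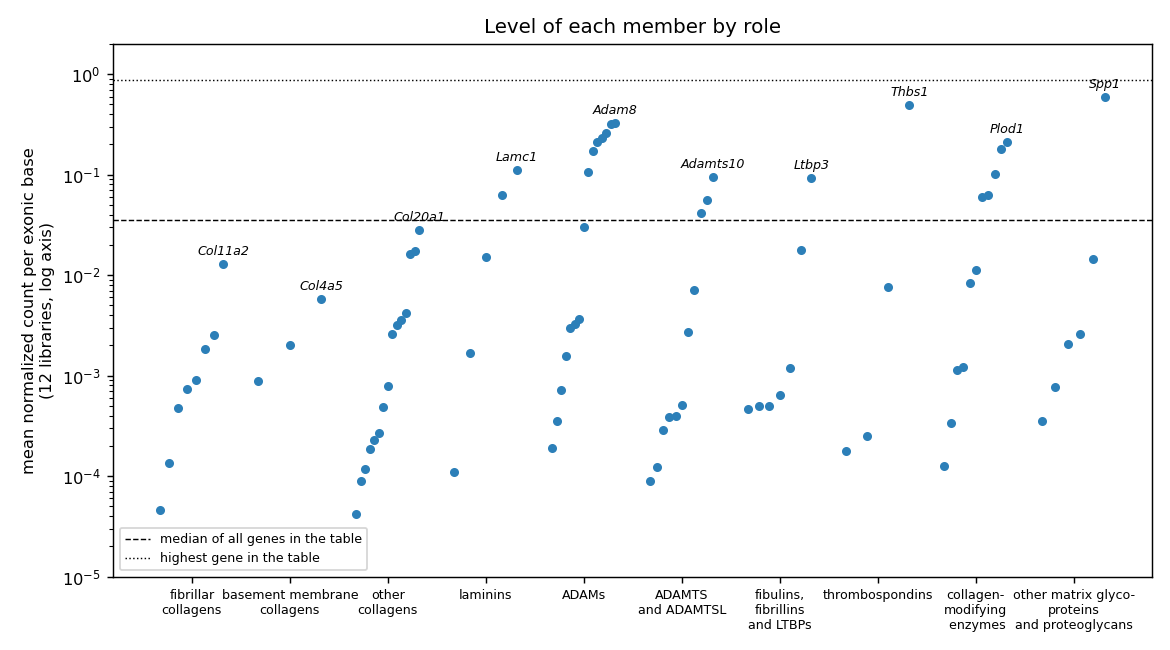
Mean normalized count per exonic base over the 12 libraries (log axis) of each of the 85 members, by role, with the highest member of each role named. *Spp1* and *Thbs1*, at 0.587 and 0.491, come nearest to the highest gene of the table (dotted line, 0.883), and every collagen lies below the median of all genes (dashed line, 0.0357).

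Activin A was compared with CTRL to see which matrix genes it changed in macrophages, and with Act + FST to see which of these differences were absent when follistatin was present. The 55 members with a mean of at least 5 were tested. The 5 comparisons share libraries, so they are not independent of each other. A member was called where limma, fitted over 14318 genes on log2(normalized count + 1), gave a fold of 2 or more with an adjusted p no higher than 0.05 (Benjamini-Hochberg). This scale understates the change of low genes. Since a member must reach a mean of 5 over all libraries, low genes could enter the test through a high level in Act.

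In Act versus CTRL, 6 of the 55 members tested rose, namely *Col27a1*, *Col14a1*, *Col4a1*, *Col15a1*, *Col4a2* and *Adamts6*. This is 10.9% of the members, where 2.58% of all genes tested rose. Of the 6, *Col27a1*, *Col14a1* and *Col4a1* reached the mean of 5 only through Act, with means of 2.22, 2.56 and 3.00 over the 9 other libraries, so nothing is read from this share. Of the 50 members with a mean of at least 5 over those 9 libraries, 3 rose. The share of all genes under that filter was not taken, so nothing is read from this count either. Another 5 fell, namely *Adamts1*, *Fbln5*, *Col23a1*, *Lama3* and *Adamtsl5*, which is 9.09% of the members against 3.09% of all genes. The falls were spread over a collagen, a laminin, a fibulin and 2 members of the ADAMTS family. The same 11 members were called in the same direction in Act versus Act + FST. There, *Fn1*, *Col19a1* and *Adam3* were also higher in Act, giving 9 higher members (16.4%, where 2.72% of all genes were higher) and 5 lower ones (9.09%, against 3.11%). *Col19a1*, with a mean of 2.89 over the 9 other libraries, was the 4th of the higher members to be tested only through Act. With the replicate number as a block, higher calls in Act versus CTRL went from 6 to 9 (2.81% of all genes) and in Act versus Act + FST from 9 to 12 (2.98%). Lower calls went from 5 to 6 in both (3.49% of all genes in each). The 11 members called in both comparisons kept their calls without the libraries numbered 1, a check added after the data were seen. In Act versus CTRL, 8 of the 48 members then tested were higher, with *Fn1* and *Col9a3* added, and 5 lower. In Act versus Act + FST there were 9 and 5. The share of all genes called in this fit was not taken, so nothing is read from these counts. The members added by the block were *Bgn*, *Col1a2*, *Postn*, *Sparc* and *Col4a5*, described with their groups. By adjusted p alone, with no threshold on the fold, 12 members were higher in Act than in CTRL (10.3% of all genes) and 6 were lower (9.97% of all genes).

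**Figure D2:**
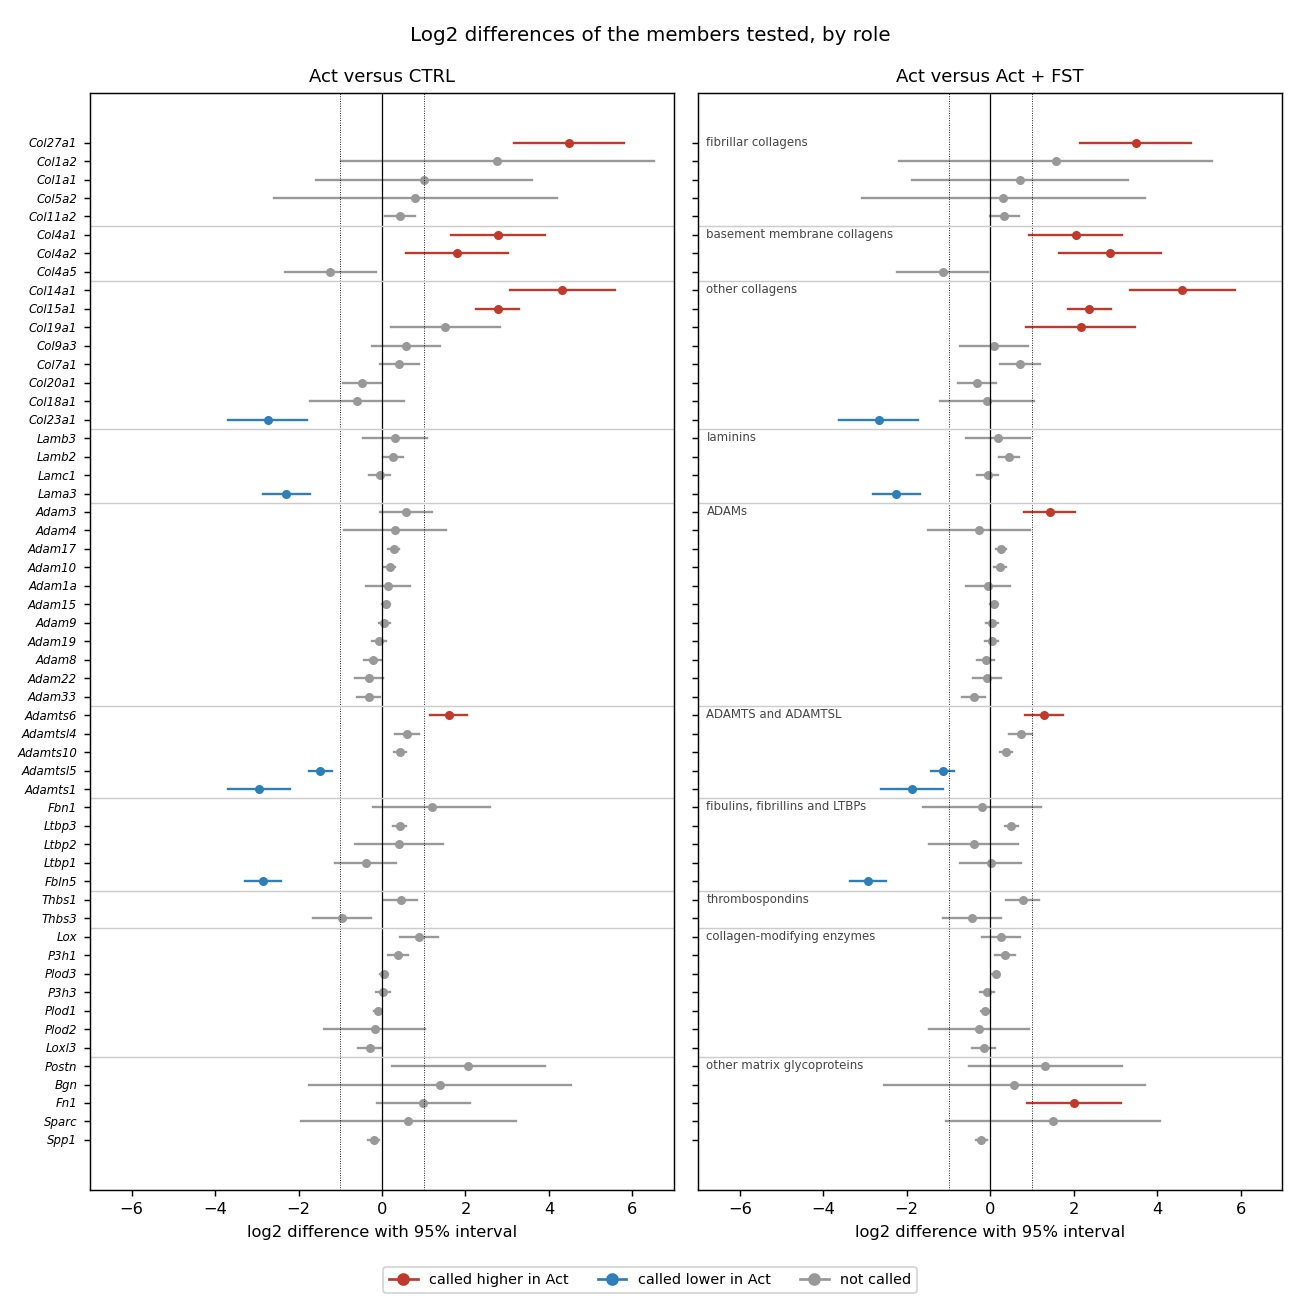
Log2 difference of Act against CTRL (left) and of Act against Act + FST (right) for the 55 members tested, grouped by role, with 95% intervals, where dotted lines mark a fold of 2. Called collagens lie to the right except *Col23a1*, while most ADAMs and collagen-modifying enzymes have narrow intervals near 0.

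The windows upstream of 3 of these genes show the sequence context of members that moved in opposite directions. RefSeq sequence of build GRCm38.p6 held a promoter window for 57 of the 85 members and for 8 of the 11 called in both comparisons, and none was printed for *Col14a1*, *Adamts6* and *Lama3*. Each sequence gives the 250 bases before the start that RefSeq places at the window, written 5′ to 3′ on the gene's strand. Capitals mark the letters CAGACA or, for the other strand, TGTCTG, a sequence known to be bound by SMAD proteins. Shown are *Col15a1*, the called rise with the highest level, at chr4:47207762-47208011 on the + strand, *Fbln5*, the fall with the smallest adjusted p, at chr12:101819120-101819369 on the − strand, and *Adamtsl5*, the called member with a match, at chr10:80348449-80348698 on the − strand.
Col15a1: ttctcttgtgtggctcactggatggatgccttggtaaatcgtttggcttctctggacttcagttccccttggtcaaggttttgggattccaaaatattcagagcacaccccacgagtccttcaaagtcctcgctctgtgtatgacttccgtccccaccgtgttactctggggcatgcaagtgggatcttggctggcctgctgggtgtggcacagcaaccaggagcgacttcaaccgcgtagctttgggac
Fbln5: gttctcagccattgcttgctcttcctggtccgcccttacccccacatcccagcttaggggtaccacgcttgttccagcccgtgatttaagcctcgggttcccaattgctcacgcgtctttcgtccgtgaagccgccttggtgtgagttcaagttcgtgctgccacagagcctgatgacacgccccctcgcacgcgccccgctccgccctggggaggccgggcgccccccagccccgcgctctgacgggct
Adamtsl5: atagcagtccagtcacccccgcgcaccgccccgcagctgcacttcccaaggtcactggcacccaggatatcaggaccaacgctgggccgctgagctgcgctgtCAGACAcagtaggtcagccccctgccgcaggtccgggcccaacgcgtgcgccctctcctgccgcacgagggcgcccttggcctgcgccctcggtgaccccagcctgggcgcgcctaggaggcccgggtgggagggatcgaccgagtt
For *Col15a1*, *Fbln5* and *Adamtsl5* the starts used lie 149, 64 and 36 bases from the gene coordinates given below. The match in *Adamtsl5* begins 147 bases before the start used. CAGACA or TGTCTG was present in 0 of the 4 windows of members that rose, in 1 of the 4 of members that fell, and in 7 of 30 windows of members tested but not called, against 13.57% of 11544 windows of all genes. The palindrome GTCTAGAC was in none of these 38 windows (0.1733% of all windows). TGANTCA, bound by AP-1 factors and also its own reverse complement, was in none of the 8 and in 1 of the 30 (4.47% of all). GGCGC or GCGCC was in 3 of 4, 4 of 4 and 11 of 30 (52.79% of all). Of the 4 windows of members that rose, those of *Col4a1* and *Col4a2* lie wholly in annotated exons. The start used for *Col27a1* lies 1408 bases from the gene start given below. None of these motifs contains another, and a letter match is only a description of these windows.

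Of the 5 fibrillar collagens tested, 1 was called, and it rose (2.58% of all genes in Act versus CTRL). This was *Col27a1* (ENSMUSG00000045672, chr4:63214004-63334991), whose product is found in cartilage. Its normalized counts in replicates 1, 2 and 3 were 31, 48 and 42 in Act, 0, 5 and 0 in CTRL, 3, 3 and 2 in Act + FST, and 1, 2 and 4 in FST. The Act libraries stood apart from the other 9, which held between 0 and 5. The log2 difference was 4.49 ± 0.61 (SE, n = 3 and 3) against CTRL (limma adjusted p = 0.000252) and 3.49 ± 0.61 against Act + FST (limma adjusted p = 0.00146). *Col11a2*, the highest fibrillar collagen per exonic base, had 92, 113 and 121 in Act against 61, 100 and 82 in CTRL, which overlap, and its log2 difference of 0.44 ± 0.16 was not called (limma adjusted p = 0.0805). The type I and V chains *Col1a1*, *Col1a2* and *Col5a2* varied more between replicates than between groups and are taken up further on.

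The basement membrane collagens *Col4a1* (ENSMUSG00000031502, chr8:11198423-11312826, − strand) and *Col4a2* (ENSMUSG00000031503, chr8:11312805-11449287, + strand) encode the chains of the common type IV collagen. They are transcribed head to head, and their annotated first exons share 22 bases. *Col4a1* had 19, 20 and 13 normalized counts in Act, 2, 2 and 1 in CTRL, 6, 2 and 3 in Act + FST, and 8, 1 and 2 in FST. *Col4a2* had 36, 41 and 23 in Act, 17, 9 and 4 in CTRL, 7, 5 and 1 in Act + FST, and 9, 4 and 4 in FST. In both genes every Act library exceeded the 9 others, by a margin of 5 or 6 normalized counts at the closest. The log2 differences against CTRL were 2.78 ± 0.52 for *Col4a1* (limma adjusted p = 0.00227) and 1.79 ± 0.56 for *Col4a2* (limma adjusted p = 0.0404). Against Act + FST they were 2.04 ± 0.52 (limma adjusted p = 0.0133) and 2.87 ± 0.56 (limma adjusted p = 0.00301). The *Col4a2* call against CTRL was lost on leaving out CTRL 2, CTRL 3, any 1 Act library, FST 2 or FST 3 (limma adjusted p from 0.0506 to 0.163), and the *Col4a1* call against Act + FST on leaving out Act 2 or Act + FST 2 (limma adjusted p = 0.0505 and 0.0526). *Col4a5*, a chain of a different type IV network, lay on the other side, with 26, 13 and 14 in Act and 61, 31 and 37 in CTRL. Its log2 difference of −1.24 ± 0.50 was not called (limma adjusted p = 0.104), and was called with the replicate number as a block (limma adjusted p = 0.00247). Against Act + FST the difference of −1.14 ± 0.50 was called with the block (limma adjusted p = 0.00412 against 0.133 without it). Leaving out Act + FST 2 also gave both calls, at −1.24 (limma adjusted p = 0.0371) and −1.75 (limma adjusted p = 0.0132), and a fit of the libraries compared alone gave that against CTRL (limma adjusted p = 0.035).

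Of the 8 other collagens tested, *Col15a1* and *Col14a1* rose (2.58% of all genes in Act versus CTRL) and *Col23a1* fell (3.09% of all genes). *Col15a1* (ENSMUSG00000028339, chr4:47208161-47313167), a collagen of basement membrane zones, had 283, 228 and 327 normalized counts in Act, 30, 43 and 48 in CTRL, 63, 37 and 62 in Act + FST, and 35, 30 and 42 in FST. It was the called collagen with the highest level, and the lowest Act library was more than 3 times the highest of the others. The mean was 279.3 ± 49.6 (SD, n = 3) in Act and 40.3 ± 9.29 (SD, n = 3) in CTRL, a log2 difference of 2.77 ± 0.24 (limma adjusted p = 7.46e-06). Against Act + FST it was 2.37 ± 0.24 (limma adjusted p = 2.26e-05). *Col14a1* (ENSMUSG00000022371, chr15:55307750-55520803), which binds to the surface of collagen fibrils, had 65, 53 and 79 in Act, 3, 2 and 2 in CTRL, 4, 0 and 3 in Act + FST, and 6, 1 and 2 in FST. No library outside Act exceeded 6. Its log2 difference was 4.32 ± 0.58 against CTRL (limma adjusted p = 0.00023) and 4.60 ± 0.58 against Act + FST (limma adjusted p = 0.000147).

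*Col23a1* (ENSMUSG00000063564, chr11:51289920-51583918), a transmembrane collagen, went the other way, with 4, 7 and 1 normalized counts in Act, 28, 23 and 33 in CTRL, 23, 21 and 38 in Act + FST, and 37, 27 and 49 in FST. The Act libraries lay below all the others, and the log2 difference was −2.74 ± 0.43 against CTRL (limma adjusted p = 0.000774) and −2.67 ± 0.43 against Act + FST (limma adjusted p = 0.000899). *Col19a1* had 11, 8 and 20 in Act, 7, 2 and 3 in CTRL, 4, 4 and 0 in Act + FST, and 2 in each FST library. Act was higher than Act + FST by 2.17 ± 0.60 (limma adjusted p = 0.0217), a call lost without Act + FST 3 (limma adjusted p = 0.0698) and in a fit of the libraries compared alone (limma adjusted p = 0.0558). Without Act 1 or Act 3 its mean fell below 5 and it could not be tested. Against CTRL the difference of 1.52 ± 0.60 was not called (limma adjusted p = 0.0989), and was called without Act + FST 3 (limma adjusted p = 0.0237). *Col20a1*, *Col18a1*, *Col7a1* and *Col9a3* were not called in either comparison, and their log2 differences of Act against CTRL lay between −0.60 and 0.57.

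**Figure D3:**
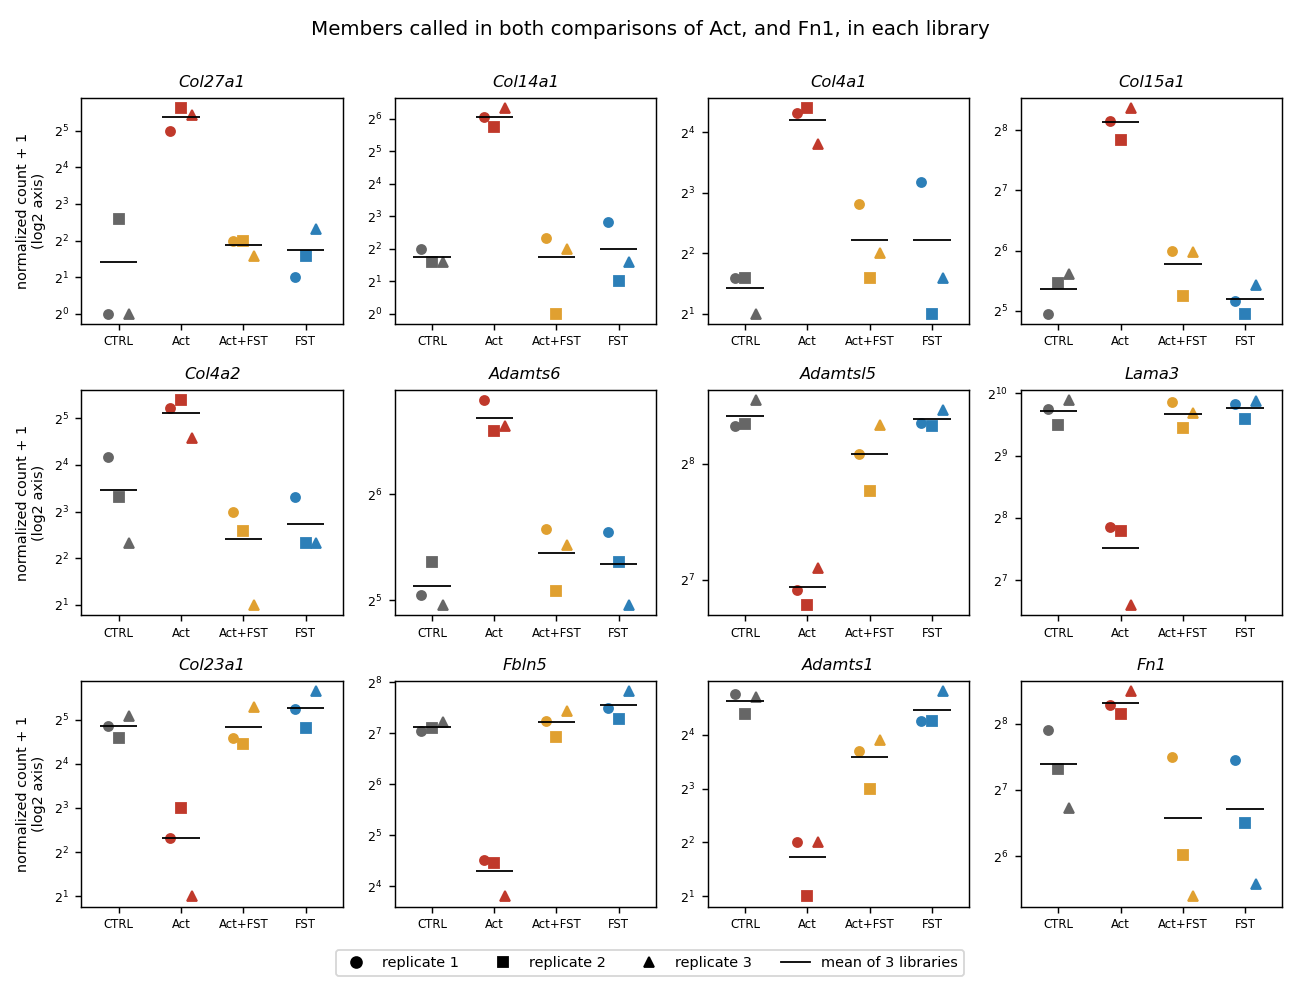
Normalized count + 1 (log2 axis, a different range in each panel) in each library of the 11 members called in both comparisons of Act, and of *Fn1*, with symbols for replicate numbers and lines for group means. In all 12 panels the 3 Act libraries lie wholly above or wholly below the other 9.

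Laminins are trimers of an α, a β and a γ chain. *Lama3* (ENSMUSG00000024421), which encodes the α chain of an epithelial laminin, fell, while the partner chains tested were not called. Its normalized counts were 229, 221 and 96 in Act, 858, 717 and 953 in CTRL, 933, 696 and 823 in Act + FST, and 909, 771 and 941 in FST. The Act libraries stood apart from the other 9, the highest at 229 against 696 for the lowest of the others, and Act 3 was the lowest of all. The log2 difference was −2.30 ± 0.26 against CTRL (limma adjusted p = 6e-05) and −2.25 ± 0.26 against Act + FST (limma adjusted p = 6.88e-05). *Lamc1*, the γ chain of many laminins, had 998, 832 and 855 in Act and 1040, 802 and 951 in CTRL, a log2 difference of −0.05 with a 95% interval from −0.30 to 0.20. *Lamb2* and *Lamb3* were not called, with log2 differences against CTRL of 0.25 ± 0.11 and 0.32 ± 0.35.

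Of the 15 ADAMs, 4 had means under 5. None of the 11 tested was called by limma in Act versus CTRL, where 2.58% of all genes rose and 3.09% fell. By unadjusted p under 0.05, *Adam10* and *Adam17* were higher there (16.2% of all genes) and *Adam8* and *Adam33* lower (16% of all genes). The log2 differences lay between −0.32 and 0.57. *Adam8*, expressed in myeloid cells, had 1521, 1326 and 1309 normalized counts in Act and 1821, 1582 and 1467 in CTRL, and the 95% interval of its log2 difference was −0.43 to −0.02. *Adam9* had an interval from −0.08 to 0.20, so a change of 2 times in either direction lay outside both. *Adam17*, the sheddase of TNF, had 2018, 1799 and 1867 in Act and 1690, 1492 and 1512 in CTRL. Its difference was small, 0.28 ± 0.06 on the log2 scale (limma adjusted p = 0.00396), and every Act library exceeded the other 9. *Adam10*, the sheddase of Notch receptors, also had its 3 Act libraries highest, with 0.18 ± 0.06 (limma adjusted p = 0.0587) against CTRL and 0.23 ± 0.06 (limma adjusted p = 0.0178) against Act + FST. *Adam3*, a gene known from sperm, had 15, 17 and 9 in Act, 10, 7 and 9 in CTRL, 5, 4 and 4 in Act + FST and 10, 8 and 8 in FST. Act and CTRL overlapped, and the call against Act + FST (1.42 ± 0.29, limma adjusted p = 0.0035) had Act + FST below every other group.

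In the ADAMTS family, 3 of 5 members tested were called, in opposite directions. In Act versus CTRL 1 rose (2.58% of all genes) and 2 fell (3.09% of all genes). *Adamts6* (ENSMUSG00000046169, chr13:104287835-104496695) had 118, 96 and 99 normalized counts in Act, 32, 40 and 30 in CTRL, 50, 33 and 45 in Act + FST, and 49, 40 and 30 in FST. Act was higher than CTRL by 1.59 ± 0.21 (limma adjusted p = 0.000195) and than Act + FST by 1.28 ± 0.21 (limma adjusted p = 0.000888). *Adamts1* (ENSMUSG00000022893, chr16:85793827-85803113), a protease that cuts the proteoglycans versican and aggrecan, had 3, 1 and 3 in Act, 26, 20 and 25 in CTRL, 12, 7 and 14 in Act + FST, and 18, 18 and 27 in FST. Act lay below all others, and the 3 Act + FST libraries lay below all CTRL and FST libraries. The log2 difference was −2.95 ± 0.34 against CTRL (limma adjusted p = 7.43e-05) and −1.87 ± 0.34 against Act + FST (limma adjusted p = 0.00195). *Adamtsl5* (ENSMUSG00000043822, chr10:80339110-80348412), a relative without a protease domain, had 119, 109 and 136 in Act, 320, 324 and 375 in CTRL, 271, 217 and 322 in Act + FST, and 327, 321 and 352 in FST. Its log2 difference was −1.48 ± 0.13 against CTRL (limma adjusted p = 7.44e-06) and −1.13 ± 0.13 against Act + FST (limma adjusted p = 5.27e-05). Without Act + FST 3 the latter came to −0.999, just under a fold of 2. *Adamts10* and *Adamtsl4* were higher in every Act library than in the other 9, by 0.43 ± 0.07 (limma adjusted p = 0.000655) and 0.60 ± 0.13 (limma adjusted p = 0.00573) against CTRL, below a fold of 2.

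Fibulins and fibrillins build elastic fibres, and latent TGF-β binding proteins hold TGF-β in the matrix. Of the 5 tested, 1 was called, and it fell (3.09% of all genes in Act versus CTRL). This was *Fbln5* (ENSMUSG00000021186, chr12:101746565-101819055), needed for elastic fibre assembly. It had 22, 21 and 13 normalized counts in Act, 131, 136 and 147 in CTRL, 150, 121 and 171 in Act + FST, and 179, 153 and 225 in FST. Means were 18.7 ± 4.93 (SD, n = 3) in Act and 138 ± 8.19 (SD, n = 3) in CTRL, with no overlap. The log2 difference of −2.85 ± 0.20 against CTRL (limma adjusted p = 1.95e-06) and of −2.94 ± 0.20 against Act + FST (limma adjusted p = 1.79e-06) had the smallest adjusted p of all 55 members in both comparisons. *Ltbp3*, the abundant member of this group at 0.0928 normalized counts per exonic base, had 1063, 1031 and 1094 in Act and 844, 814 and 712 in CTRL. Its log2 difference was 0.43 ± 0.07 (limma adjusted p = 0.00109), below a fold of 2. *Fbn1*, *Ltbp1* and *Ltbp2* had means between 5 and 10 normalized counts and were not called.

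*Thbs1* encodes a secreted glycoprotein that can release TGF-β from its latent form. It had 4088, 4006 and 3830 normalized counts in Act, 3407, 2794 and 2622 in CTRL, 2805, 2708 and 1637 in Act + FST, and 2947, 2824 and 2144 in FST. The Act libraries were highest, but the difference stayed below a fold of 2, at 0.44 ± 0.18 against CTRL (limma adjusted p = 0.109) and 0.78 ± 0.18 against Act + FST (limma adjusted p = 0.0083). Blocked by replicate number, the limma adjusted p against CTRL was 0.00398. *Thbs3* had 19, 31 and 27 in Act and 36, 56 and 61 in CTRL, a log2 difference of −0.96 ± 0.32 that was not called (limma adjusted p = 0.0541) but was without CTRL 1 (−1.18, limma adjusted p = 0.0317). For *Thbs3* the block gave a limma adjusted p of 0.000601 at the same difference, just under a fold of 2. Its FST libraries, at 20, 44 and 40, overlapped those of Act and CTRL.

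No collagen-modifying enzyme of 7 tested was called by limma in Act versus CTRL or Act versus Act + FST. Of all genes, 2.58% and 2.72% were called higher in these comparisons, and 3.09% and 3.11% lower. An unadjusted p under 0.05 was found for 4 and 3 enzymes. In Act versus CTRL 2 of these were higher and 2 lower, and in Act versus Act + FST 2 were higher (16.6% of all genes) and 1 lower (16.2% of all genes). *Lox*, the prototype lysyl oxidase, had 96, 63 and 61 normalized counts in Act and 41, 39 and 36 in CTRL, a log2 difference of 0.88 ± 0.21 (limma adjusted p = 0.0101). Its Act + FST libraries, at 64, 70 and 47, overlapped those of Act. *P3h1* was higher in Act by 0.39 ± 0.11 (limma adjusted p = 0.0227). *Plod1* and *Plod3* had 95% intervals of −0.19 to −0.02 and −0.04 to 0.15 for the log2 difference against CTRL, and *P3h3* of −0.14 to 0.20, so a fold of 2 lay well outside them.

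Fibronectin (*Fn1*, ENSMUSG00000026193, chr1:71585520-71653200) is a glycoprotein to which cells attach through integrins. It had 310, 282 and 359 normalized counts in Act, 238, 159 and 105 in CTRL, 179, 64 and 41 in Act + FST, and 175, 90 and 47 in FST. In CTRL, Act + FST and FST the values lay far apart and replicate 1 was highest, whereas the Act libraries lay together above all 9. Act was called higher than Act + FST, by 2.00 ± 0.52 (limma adjusted p = 0.0144), a call lost without Act 3 (limma adjusted p = 0.0513) or Act + FST 3 (limma adjusted p = 0.0616). Against CTRL the log2 difference was 0.99 ± 0.52 with a 95% interval from −0.13 to 2.11 (limma adjusted p = 0.213). This became 1.29 (limma adjusted p = 0.0272), a call, when the 4 libraries numbered 1 were left out, and with the replicate number as a block the adjusted p was 0.0209 at a difference just under 2-fold. Of the exonic bases of *Fn1*, 2.50% are shared with the annotated gene *Apol7d* on the opposite strand, and the strand setting of the counting was not stated. *Spp1* had 933, 833 and 820 in Act and 1056, 930 and 992 in CTRL, a difference of −0.20 ± 0.06 (limma adjusted p = 0.0319) with an interval from −0.34 to −0.07, far from a fold of 2.

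Type I and V collagen chains and several matrix glycoproteins were high in replicate 1 of every group. *Col1a1* had 22, 3 and 3 normalized counts in CTRL, 83, 8 and 3 in Act, 28, 2 and 7 in Act + FST, and 35, 4 and 4 in FST. *Col1a2* had 24, 0 and 0 in CTRL, 109, 9 and 6 in Act, 58, 0 and 4 in Act + FST, and 58, 1 and 4 in FST. *Col5a2*, *Bgn* (biglycan), *Postn* (periostin), *Sparc* (osteonectin) and *Plod2* showed the same order, with means over the 4 libraries numbered 1 of 20.3, 34, 15, 24.3 and 77.3 against 0.375, 2.13, 2.63, 2.63 and 29.6 over the 8 others. These 7 members had a replicate 1 at least 2 times the mean of replicates 2 and 3 in all 4 groups. That is 12.7% of the members tested, against 0.0908% (13) of all 14318 genes tested. A replicate 1 that was merely highest in each group was found for 13 members (23.6%, against 13.1% of all genes). Of the 7, all but *Plod2* had means of at most 4.25 over the 8 others. They reached the mean of 5 only through the libraries numbered 1, so nothing is read from these shares. For *Col18a1* (endostatin's parent collagen) replicate 1 was also highest in each group, with a mean of 202.3 against 81.1.

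**Figure D4:**
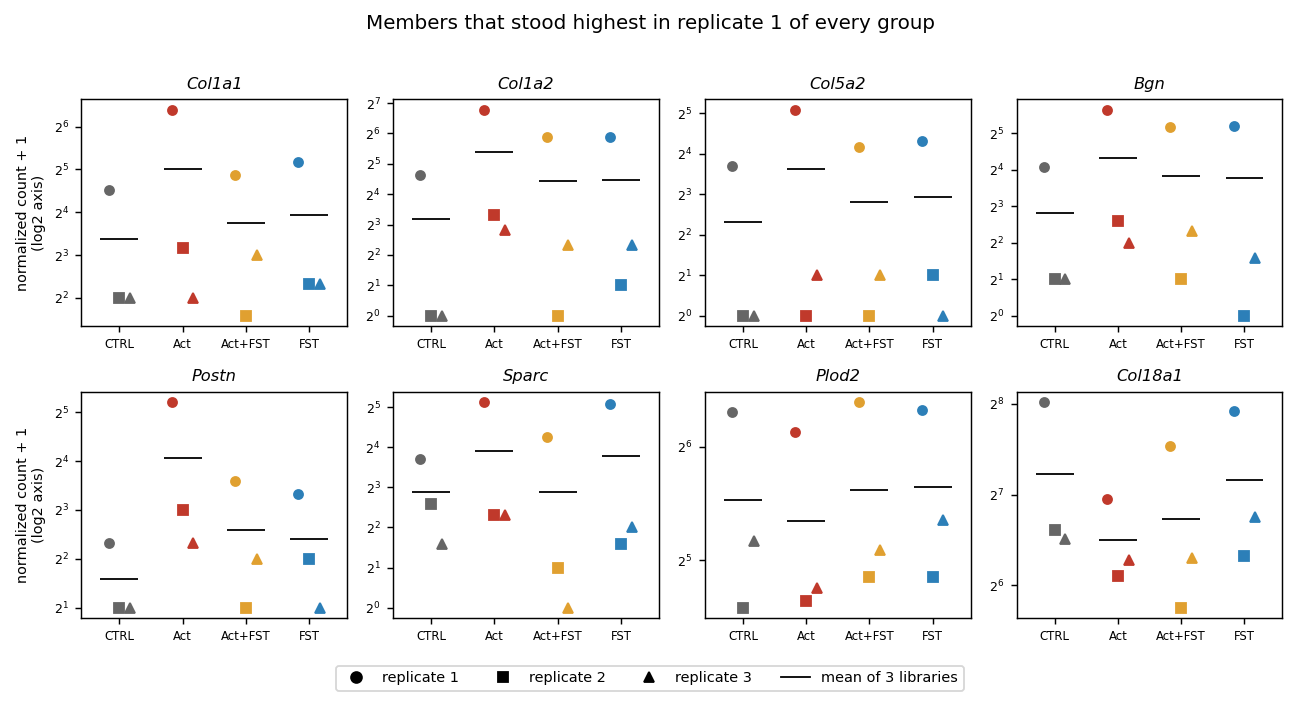
Normalized count + 1 (log2 axis, a different range in each panel) in each library of *Col1a1*, *Col1a2*, *Col5a2*, *Bgn*, *Postn*, *Sparc*, *Plod2* and *Col18a1*, with symbols for replicate numbers and lines for group means. The circles of replicate 1 lie above the squares and triangles of replicates 2 and 3 in every group of every panel.

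Within replicate 1, Act was the highest of the 4 libraries for *Col1a1*, *Col1a2*, *Col5a2*, *Bgn*, *Postn* and *Sparc*, and Act was the lowest for *Plod2* and *Col18a1*. Without the block none of these 8 was called, with log2 differences of Act against CTRL of 1.01 ± 1.19 for *Col1a1* (limma adjusted p = 0.626), 2.76 ± 1.73 for *Col1a2* (limma adjusted p = 0.31), 1.38 ± 1.44 for *Bgn* (limma adjusted p = 0.576) and 2.07 ± 0.84 for *Postn* (limma adjusted p = 0.107). With the replicate number as a block, *Col1a2* (limma adjusted p = 0.000473), *Postn* (limma adjusted p = 0.00226) and *Bgn* (limma adjusted p = 0.031) were called higher in Act than in CTRL. Against Act + FST, *Col1a2* (limma adjusted p = 0.0197), *Postn* (limma adjusted p = 0.0316) and *Sparc* (limma adjusted p = 0.0213) were called with it. Without the libraries numbered 1, *Col1a1*, *Col1a2*, *Col5a2*, *Bgn*, *Postn* and *Sparc* all had means below 5 (at most 4.25) and could not be tested. Of the 5 mesenchymal markers in the table that are not members, *Cdh11*, *Prrx1* and *Pdgfra* had their highest values in libraries numbered 1, whereas *Fap* and *Thy1* did not. *Cdh11* had 8, 27, 11 and 11 in replicate 1 of CTRL, Act, Act + FST and FST against at most 9 in the 8 others, *Prrx1* had 1, 3, 3 and 7 against at most 1, and *Pdgfra* had 4 in Act 1, 2 in FST 1 and 0 in the other 10 libraries. The 9 mesenchymal markers in the table, 13 being listed, include *Col1a1*, *Col1a2*, *Col3a1* and *Dcn* and summed to 91, 267, 126 and 142 in the libraries numbered 1. In replicates 2 and 3 they summed to 82 and 73 in Act and to 24 to 43 in the other groups. *Fap* had 36, 52 and 50 in Act and 12 to 33 in the 9 other libraries, and *Thy1* at most 3 in any library. Without the 4 member genes the sums were 36, 71, 36 and 37 in the libraries numbered 1 and 17 to 62 in the 8 others, which overlap. Their part in the collagen differences was not tested.

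Markers of other cell types also differed with the treatment. The 6 osteoclast markers in the table, of 7 listed, summed to 653 to 852 in Act, 1163 to 1514 in CTRL, 840 to 1128 in Act + FST and 1155 to 1381 in FST. *Atp6v0d2* and *Ctsk* were lower in every Act library than in the other 9 and *Acp5* was higher, so the markers did not move one way. Of the 7 markers of neutrophils and their precursors, *Mpo* had 15 to 42 in Act and 54 to 162 in the other 9 libraries, and *Elane* and *Prtn3* were likewise apart, although the list's sums of 347 to 515 and 435 to 730 overlapped. *Kit* (11 to 32 against 34 to 72), a mast cell marker, and *Cd209a* (1 to 14 against 18 to 36), a dendritic cell marker, were lower in Act. No other marker of either list had its Act libraries apart from the other 9. The sums overlapped, at 13 to 43 in Act against 37 to 77 (mast cell) and 56 to 120 against 60 to 129 (dendritic cell). Among endothelial markers *Pecam1* was higher (153 to 223 against 36 to 125) and *Kdr* lower (85 to 138 against 149 to 255), and the macrophage marker *Mrc1* was lower (2158 to 2466 against 3018 to 3448). Their part in the matrix differences was not tested, and in these bulk samples fewer cells of a type and less RNA per cell cannot be told apart.

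FST288 was given alone and with activin A to see what it changed. In FST versus CTRL 0 of the 55 members were called (0% of all genes), and 0 had an unadjusted limma p under 0.05 in either direction (1.15% of all genes were higher and 0.936% lower by that rule). In Act + FST versus CTRL 0 members were called as well (0% of all genes). By unadjusted p, 1 was higher there, *Lox* (2.49% of all genes), and 3 were lower, *Adam3*, *Adamts1* and *Adamtsl5* (2.08% of all genes). The lowest adjusted p of a member was 0.772 in Act + FST versus CTRL and 1 in FST versus CTRL. The differences of Act + FST against CTRL for the 11 members called in Act lay between −1.08 (*Adamts1*, limma adjusted p = 0.772) and 1.00 (*Col27a1*, limma adjusted p = 1). For 8 of the 11 the sign was that of Act versus CTRL. Nothing is read from this count, since both differences share the CTRL libraries. With the replicate number as a block, the smallest limma adjusted p of the 11 in Act + FST versus CTRL were 0.054 for *Adamtsl5* (−0.34) and 0.105 for *Adamts1*. *Fbln5* and *Lama3* had log2 differences of 0.08 and −0.04. With 3 libraries per group, a p that misses the threshold does not show that Act + FST and CTRL were alike.

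Whether the effect of activin A differed with and without FST288 was tested directly, as Act minus CTRL against Act + FST minus FST. The activin difference was larger without FST288 for 4 members that rose, *Col14a1*, *Col27a1*, *Col15a1* and *Adamts6* (7.27% of the members, where 1.34% of all genes were called, and *Col14a1* and *Col27a1* were tested only through Act). It was more negative for 5 that fell, *Fbln5*, *Col23a1*, *Lama3*, *Adamts1* and *Adamtsl5* (9.09%, against 1.31% of all genes). *Col4a1* and *Col4a2* had the same direction, at 2.57 ± 0.73 and 2.25 ± 0.79 (limma adjusted p = 0.056 and 0.12), and were called with the replicate number as a block (limma adjusted p = 0.0106 and 0.00628). With the block the counts were 9 (2.07% of all genes) and 6 (2.3% of all genes), the other additions being *Adam3*, *Col1a2*, *Postn* and *Thbs3*. The *Col23a1* call was lost on leaving out any 1 library except Act 2. Without CTRL 3, Act + FST 3, FST 1 or FST 2, or without the 4 libraries numbered 1, *Adamts1* was lost as well, which left 3 of the 5, and without those numbered 1 *Adamts6* was also lost, which left 3 of the 4.

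Across the 55 members, Act versus CTRL had a median log2 difference of 0.31, against 0.0036 over all genes tested, with 36 members above 0 and 19 below. All 3 Act libraries exceeded the other 9 for 15 members (27.3%, against 12.6% of all genes) and lay below them for 6 (10.9%, against 11.3%). The 5 members tested only through Act (*Col27a1*, *Col14a1*, *Col4a1*, *Col19a1* and *Postn*) and low members whose spread between replicates is wide contribute to these counts and to the median, so nothing is read from them. The 30 members not tested had means from 0.417 to 4.67 normalized counts, with 19 as the highest single value, in *Col5a1*. Among them were *Col3a1*, *Col6a1*, *Col6a2*, *Col6a3*, *Dcn* (decorin), *Loxl1*, *Loxl2*, *Fbln2*, *Adamts2* and *Thbs2*, genes typical of fibroblasts. *Dcn* had 8 in CTRL 1, 4 in Act + FST 1 and 8 in FST 1, and at most 2 in the other 9 libraries. *Lama5* was the 1 untested member with every Act library above the other 9. Just below the limit of 5 stood *Adam32*, *P3h2* and *Col5a1* (means of 4.67, 4.25 and 4.08), and just above it *Col19a1*, *Fbn1* and *Col4a1* (means of 5.42, 5.67 and 6.58).

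Among 53 partner genes of the matrix, such as further collagen-processing enzymes, receptors and protease inhibitors, 45 were in the table and 34 were tested. In Act versus CTRL 0 rose (2.58% of all genes) and 4 fell (3.09% of all genes) by limma, while 10 were higher (16.2% of all genes) and 10 lower (16% of all genes) at an unadjusted p under 0.05. The 4 were *Nid2* (nidogen 2, which links laminin to type IV collagen), *Timp1* (a metalloproteinase inhibitor), *Ctsk* (cathepsin K, a collagen-cutting protease) and *Pcolce* (an enhancer of procollagen processing). *Nid2* had 8, 12 and 15 normalized counts in Act, 45, 33 and 38 in CTRL, 46, 29 and 72 in Act + FST and 42, 37 and 50 in FST. Its log2 difference was −1.68 ± 0.31 (limma adjusted p = 0.00201), and it was the 1 partner called lower against Act + FST (−1.93 ± 0.31, limma adjusted p = 0.000756). *Sdc1*, the proteoglycan syndecan 1, was called higher in Act than in Act + FST (1.57 ± 0.28, limma adjusted p = 0.00182) with 441, 408 and 415 against 203, 150 and 93. CTRL lay between them, at 312, 272 and 165. Neither Act (0.80 ± 0.28, limma adjusted p = 0.0656) nor Act + FST (−0.76 ± 0.28, limma adjusted p = 0.945) was called against CTRL. With the replicate number as a block, the test of the activin effect with and without FST288 also called *Sdc1* (1.35, limma adjusted p = 0.00034 against 0.0647 without the block). *Bmp1*, a protease that cuts procollagen, was called higher in Act only with the block, by 1.10 against CTRL (limma adjusted p = 0.0329 against 0.0851) and by 1.21 against Act + FST (limma adjusted p = 0.0201 against 0.0587). The collagen chaperone *Serpinh1* and the basement membrane proteoglycan *Hspg2* followed the libraries numbered 1, with 4, 7, 11 and 14 and with 3, 13, 3 and 11 in these, against at most 2 and 3 in the others.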

How the data were processed

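The authors trimmed single-end reads of 75 bases with Trimmomatic 0.39, aligned them to mm10 (STAR 2.7.9a) and assigned them to genes (featureCounts 2.0.2) (versions from the submitters' processing notes). They deposited 1 signal value per gene and library, namely normalized counts rounded to whole numbers, and the authors ran their own tests with DESeq2 1.30.0. The formula of the scaling and the strand setting of the counting are not given in the sources used here. Whole reads could not be recovered after the rounding, so no count test was run.

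Values were tested with limma (version 3.58.1, R 4.3.3, with its trended empirical Bayes step) on log2(normalized count + 1), with all 12 libraries and 4 group means. The 14318 genes whose mean reached 5 were fitted. P-values were adjusted over all these genes, and all tests are two-sided. A single exact permutation test of 3 against 3 libraries cannot go below p = 0.1. Counting error adds most to the spread of members near the mean of 5.

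Replicate numbers come from the labels. Libraries with the same number deviated from their group means together (18 pairs, correlations across genes from 0.157 to 0.481, mean 0.312). The 36 pairs with different numbers ranged from −0.358 to 0.169, with a mean of −0.155. This negative mean largely follows from the first mean, since the deviations within a group cancel out. Because libraries with the same number deviated together, blocked results are given where they change a call. The block also lowered some adjusted p without changing a call. In Act versus CTRL by limma, examples are *Adam10* (0.00187 against 0.0587), *Adam8* (0.00104 against 0.113) and *Col11a2* (0.0191 against 0.0805).

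The members and the role, partner and marker lists were chosen with earlier results of these data known. Named are all members called in Act versus CTRL, in Act versus Act + FST or in the test of the activin effect with and without FST288, then *Fn1*, *Sparc*, *Spp1*, *Bgn*, *Dcn* and *Postn*, and the 2 members of each role with the highest level per exonic base. Other names were chosen after the values were seen. Exonic lengths, coordinates and gene overlaps are those of GENCODE for GRCm38, which held all 85 members. Alternatives were pseudocounts of 0.5 and 5, no filter or a mean of at least 50, quantile normalization, median-of-ratios factors, only the libraries compared, the replicate block, leaving out each library, and, added after the data were seen, leaving out the 4 libraries numbered 1.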

Additional observations from a re-analysis of the deposited data

Results flagged for a closer look

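The difference of Act from CTRL was set against that of Act + FST from FST in 1 model. Singled out were 9 members where these differed by at least 2-fold with a limma adjusted p (over all genes tested) no higher than 0.05. By this rule 1.34% of all genes were called higher and 1.31% lower. *Col14a1* and *Col27a1* were tested only through Act. The values on the log2 scale were 4.67 for *Col14a1*, 4.26 for *Col27a1*, 2.21 for *Col15a1* and 1.48 for *Adamts6*, which rose with activin A. For the members that fell they were −2.53 for *Fbln5*, −2.28 for *Col23a1*, −2.20 for *Lama3*, −2.05 for *Adamts1* and −1.16 for *Adamtsl5*. *Col23a1* and *Adamts1* had the largest adjusted p of the 9 in limma (0.0452 and 0.0246). Groups of 3 libraries are too small for a test of single outlying libraries.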

How the results depend on the processing

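All p-values here are limma's, adjusted over the genes tested. The 6 and 5 calls of Act versus CTRL ranged from 5 to 7 and from 5 to 6 when 1 library was left out, the 9 and 5 calls of Act versus Act + FST from 7 to 9 and from 4 to 6, and the 4 and 5 calls of the test of the activin effect with and without FST288 from 4 to 5 and from 3 to 5. A mean of at least 50 left 2 and 3 calls, 3 and 3 calls, and 2 and 3 calls in these comparisons, since fewer members were then tested. With the replicate block the activin effect test gave 9 higher calls in place of 4, and without the 4 libraries numbered 1 it gave 3 lower calls in place of 5. The replicate block changed no call of a member or partner beyond those given with the genes. Of 1626 alternative values of named members, 1576 kept their direction and their side of the threshold, 16 lost a call, 14 gained one and 20 changed sign. None of those that changed sign belonged to a called value, and the cause was not tested. Across libraries left out, the log2 difference of Act against CTRL ranged from −0.0061 to 0.12 for *Adam9*, from −0.26 to 1.94 for *Col1a1*, from −0.16 to 0.031 for *Lamc1*, from −0.65 to 0.30 for *Plod2* and from −0.30 to 1.17 for *Sparc*. Against Act + FST it ranged from −0.013 to 0.075 for *Adam9*, from −0.54 to 1.75 for *Bgn*, from −0.47 to 0.42 for *Col18a1*, from −0.56 to 1.63 for *Col1a1*, from −0.56 to 1.53 for *Col5a2*, from −0.17 to 0.019 for *Lamc1* and from −0.75 to 0.20 for *Plod2*. Quantile normalization put *Adam9* at −0.015, and leaving out the libraries numbered 1 put *Col18a1* at 0.17 (both Act against Act + FST). The *Col4a2* call against CTRL was also lost with a pseudocount of 0.5 (adjusted p = 0.0532), and the *Adam3* call with a pseudocount of 5 (log2 difference 0.98). In the test of the activin effect, *Col23a1* was lost with a pseudocount of 0.5 and *Adamts1* with quantile normalization. With no filter *Lama5* was added to the higher calls of Act versus CTRL. Depth limits the members near a mean of 5, where 1 read is a large part of the value.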
